A study of Mus musculus with 32 samples.

Results

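The genes described here are 9 genes of death receptor signalling, necroptosis and pyroptosis: Zbp1, Ripk3, Mlkl, Ripk1, Casp8, Casp4, Casp1, Xaf1 and Tnfsf10. They were listed by symbol and the rule used none of their measured values, but they were chosen with earlier results of these data known. All 9 were found by Ensembl identifier among the 23035 genes of the footprint tables. They were followed in neural stem cells (NSCs) from the ventricular-subventricular zone of C57BL/6 mice of 8 to 12 weeks, male by the study's methods, that were cultured ex vivo with growth factors. Cultures received IFN-β or vehicle, the BSA and PBS solution in which IFN-β was diluted, for 2 h or 14 h, and all of them were exposed briefly to cycloheximide before lysis, which holds ribosomes on their mRNA. Each of the 4 groups held 4 cultures (replicates 2, 3, 5 and 6 at 2 h, and 1 to 4 at 14 h), and each culture gave a library of ribosome footprints within coding sequences (CDS) and a library of total RNA. The study's methods define biological replicates as different mice or NSC cultures taken from different mice, and the labels of these libraries give a replicate number alone. In a culture a change in the RNA of each cell and a change in the share of a cell type cannot be told apart.

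Extrinsic cell death starts at receptors of the TNF family, which gather RIPK1, FADD and caspase-8 on the cytoplasmic side. Where caspase-8 activity is low, RIPK1 or the nucleic acid sensor ZBP1 can engage RIPK3, which phosphorylates MLKL, the protein that breaks the plasma membrane in necroptosis. Pyroptosis runs through caspase-1, activated in inflammasomes, and through mouse caspase-4 (also called caspase-11), which senses lipopolysaccharide, and both cleave gasdermin D into a pore. Many of these genes are known targets of type-I interferon, which acts on promoters at interferon-stimulated response elements (ISRE) and at gamma-activated sites (GAS).

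Because most of these genes moved together, the start regions of the members were read for the letters of these elements. RefSeq promoter windows (GRCm38.p6, 250 bases before to 50 bases after the start) were held for 8 of the 9 members in 10 windows, Ripk1 and Casp4 with more than 1 start, and Zbp1 had no entry. The search covered 3 motifs on both strands, the ISRE core GAAANNGAAA, the shorter IRF core AANNGAAA, which is contained in it, and the GAS TTCNNNGAA. The ISRE core stood in 1 of the 10 member windows and in 3.44% of all 32851 windows. The IRF core stood in 6 of the 10 and in 23.9% of all, and the GAS in 1 of the 10 and in 8.30% of all. Of those 6, the windows of Casp4 overlap and hold the same matches. In Ripk1 the IRF core lies within the ISRE core. A set of 4 stretches of 120 bases (110 before and 10 from the start on, plus strand, matches in capitals) shows where the letters lay, chosen for the member with an ISRE match and for 3 members with IRF cores within the 60 bases before the start:

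Ripk1, second start, chr13:34002764-34002883: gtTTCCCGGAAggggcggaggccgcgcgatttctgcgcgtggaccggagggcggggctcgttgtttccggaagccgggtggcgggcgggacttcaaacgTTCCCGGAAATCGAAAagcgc

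Xaf1, chr11:72301519-72301638: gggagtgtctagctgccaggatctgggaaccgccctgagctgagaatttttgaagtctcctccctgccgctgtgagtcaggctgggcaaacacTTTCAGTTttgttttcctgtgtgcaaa

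Tnfsf10, chr3:27316967-27317086: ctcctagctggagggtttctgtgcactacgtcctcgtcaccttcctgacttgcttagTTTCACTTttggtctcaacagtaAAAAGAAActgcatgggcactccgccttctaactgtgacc

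Casp4, second start, chr9:5308750-5308869: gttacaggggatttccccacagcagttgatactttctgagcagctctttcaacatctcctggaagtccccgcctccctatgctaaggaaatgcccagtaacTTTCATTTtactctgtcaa

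In Ripk1 the ISRE core GAAATCGAAA lay at bases -5 to 4, counting the start as 0, and the GAS letters TTCCCGGAA stood at -108 to -100 and again at -11 to -3, overlapping the ISRE core. In Xaf1 an IRF core lay at -17 to -10 and another, outside the stretch shown, at 11 to 18. In Tnfsf10 the IRF cores lay at -53 to -46 and -30 to -23, and in Casp4 at -9 to -2 and, outside the stretch, at -197 to -190. In Casp8 it lay further from the start, at -171 to -164 and -108 to -101, and the windows of Mlkl, Casp1 and Ripk3 held none of these letters. A match of letters is a description of the sequence and not a measured binding site.

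Footprint libraries held 2956297 to 10505108 counts and total RNA libraries 1370008 to 7877753, and no 2 libraries held identical values. Levels are given as counts or as CPM, the counts per 1000000 after edgeR's TMM scaling over the 16 footprint libraries. The NSC markers Nes, Sox2 and Slc1a3 were present in every library, at 1672 to 4104 CPM, 199 to 494 CPM and 591 to 1439 CPM. Because several members are abundant in microglia and macrophages, markers of those cells were read too. Of 10 such markers, Aif1 and Cx3cr1 had no footprint in any library. The sum over the list lay between 16.2 and 35.3 CPM in vehicle libraries and between 21.2 and 41.5 CPM in IFN-β libraries at 2 h, and between 38.0 and 42.7 CPM and between 42.2 and 46.5 CPM at 14 h. At 14 h its more abundant members moved in opposite directions, P2ry12 from between 5.57 and 8.28 CPM in vehicle libraries to between 20.4 and 26.0 CPM in IFN-β libraries, and Itgam from between 29.4 and 35.6 CPM to between 17.5 and 20.7 CPM. Summed markers of other cell types were also higher with IFN-β at 14 h, those of neurons at 1419 to 1573 CPM (vehicle 1058 to 1164), of oligodendrocytes at 218 to 294 (95.7 to 126), of ependymal cells at 51.5 to 67.1 (22.7 to 29.8) and of endothelial cells at 9.73 to 12.6 (7.78 to 8.79). Single genes carried most of these sums: Map2 made up 1401 to 1556 of the neuron sum (vehicle 1044 to 1141), Cnp 216 to 293 of the oligodendrocyte sum (93.8 to 124) and Foxj1 41.8 to 56.7 of the ependymal sum (16.7 to 23.5). The neuronal Rbfox3 (at most 1.33 CPM) and Stmn2 (at most 7.18 CPM) had lower ranges with IFN-β that overlapped those of vehicle, and Mbp, Mog, Mag and Cldn5 stood at 0.336 CPM or less in every library of 14 h. The part of such cells in the members' values was not tested. At 2 h, replicate 3 stood apart from its mates in both treatments (Pearson's r with its mates between 0.961 and 0.971 for vehicle and between 0.962 and 0.973 for IFN-β, where other pairs reached 0.992 and 0.991), and its Gfap level was 114 and 469 CPM against at most 4.90 and 75.3 CPM in the other vehicle and IFN-β libraries.

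Genes with 10 counts or more in 4 or more of the compared libraries were tested, with edgeR's quasi-likelihood test and Benjamini-Hochberg adjustment over all of them, and called at an adjusted p under 0.05. At 14 h 8 of the 9 members could be tested and all 8 were called higher with IFN-β, where 26.2% of the 12113 genes tested were called higher and 26.3% lower. At 2 h 6 members could be tested and 5 were called higher, where 5.25% of 12104 genes were called higher and 2.01% lower. These shares cannot be read as support by themselves, since the members were chosen with earlier results of these data known. Of the members tested, 4 of 6 at 2 h and 5 of 8 at 14 h passed the filter on low counts only through their IFN-β libraries. In the vehicle libraries alone, Ripk1 and Casp8 would have passed at 2 h, and Mlkl, Ripk1 and Casp8 at 14 h. The median change of all genes tested was -0.02 at 2 h and 0.00 at 14 h on the log2 scale.

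**Figure D1:**
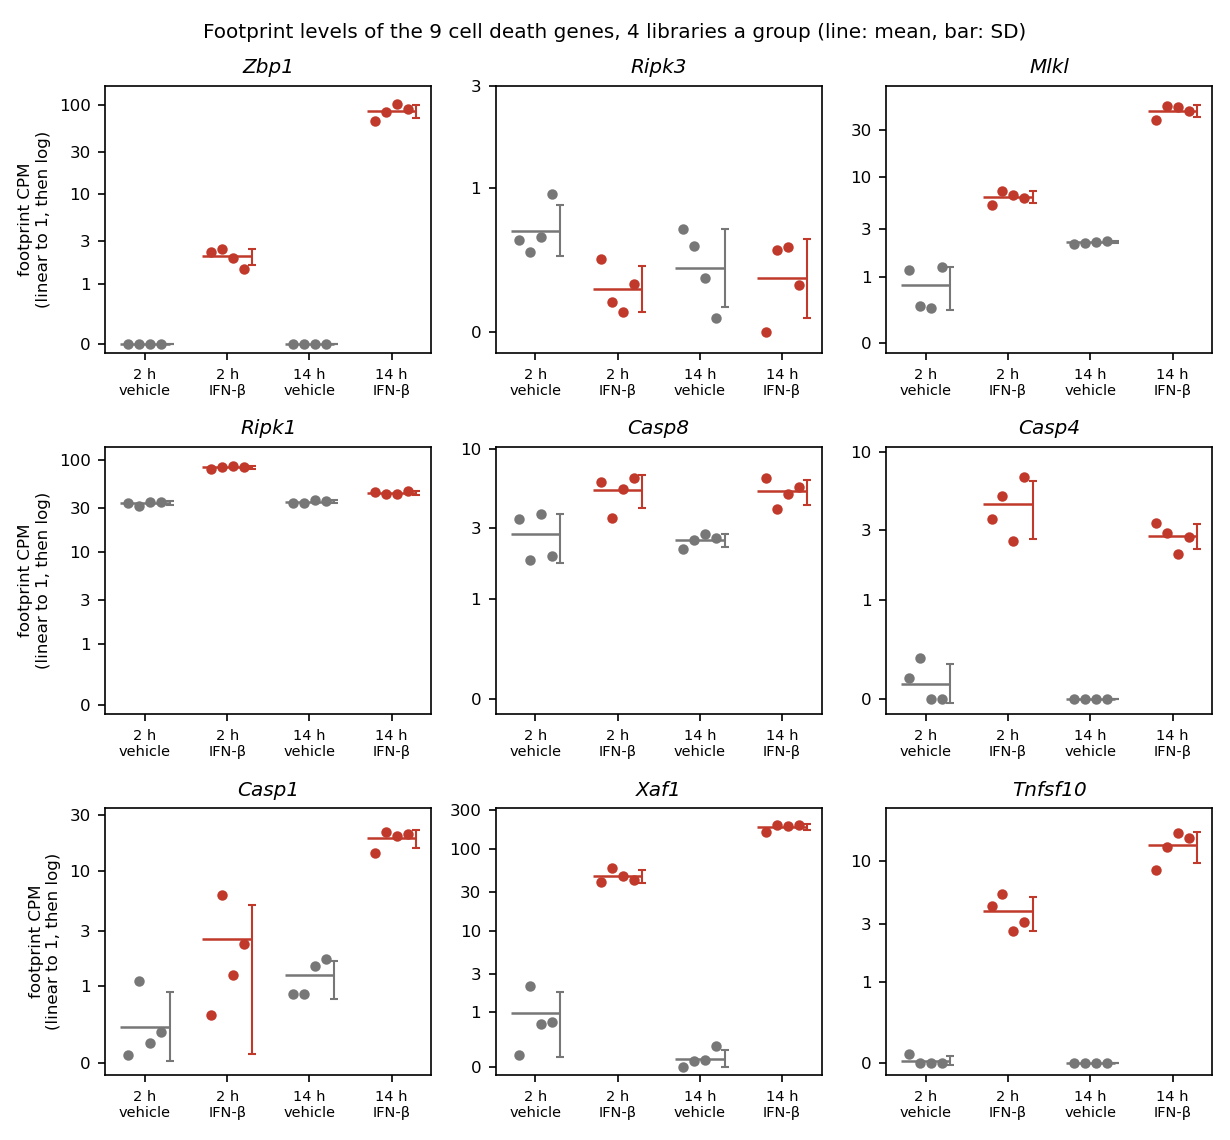
Footprint level in CPM (vertical axis, linear to 1 and logarithmic above) of the 9 cell death genes in the 4 libraries of each group, with points for libraries, a line for the mean and a bar for the SD. Xaf1, Zbp1, Mlkl, Casp1 and Tnfsf10 rise from vehicle to IFN-β and stand higher at 14 h than at 2 h, Ripk1 is higher at 2 h than at 14 h with IFN-β, and Ripk3 stays under 1 CPM in every library.

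Zbp1, the sensor of Z-form nucleic acids that can start necroptosis, lies at chr2:173206612-173218923 on the minus strand (GRCm38, GENCODE M21, as for all gene positions below). It had no footprint in any of the 8 vehicle libraries. With IFN-β it had 18, 12, 14 and 9 footprints at 2 h (replicates 2, 3, 5 and 6) and 198, 581, 680 and 826 at 14 h (replicates 1 to 4). The groups did not overlap at either time. Its level with IFN-β was 2.04 ± 0.42 CPM (SD, n = 4) at 2 h and 84.7 ± 14.2 CPM at 14 h. Taken against a floor of 3 counts over the vehicle group, footprints were at least 21.3-fold higher at 2 h and at least 1001-fold higher at 14 h, where floors and intervals of this kind cover counting error only. The 14 h change was called (adjusted p = 1.21e-09 in edgeR's quasi-likelihood test). At 2 h 3 libraries reached 10 counts and the gene was not tested, and without a filter on low counts it was called (adjusted p = 0.00109).

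Ripk3, the kinase that phosphorylates MLKL (chr14:55784995-55788865, minus strand), was nearly silent. With vehicle it had 6, 4, 5 and 7 footprints at 2 h and 4, 6, 3 and 1 at 14 h, and with IFN-β 4, 1, 1 and 2 at 2 h and 0, 4, 4 and 3 at 14 h. In sum these were 22 footprints with vehicle and 8 with IFN-β at 2 h, and 14 and 11 at 14 h. At 2 h each IFN-β library lay below the vehicle library of its number and the groups did not overlap, while at 14 h they overlapped. The gene had too few counts for the filter. Without it, the log2 fold change was -1.16 ± 0.51 (SE) at 2 h (adjusted p = 0.303 in edgeR's quasi-likelihood test) and 0.01 ± 0.67 at 14 h (adjusted p = 0.989), so a change of this gene was not detectable at this depth.

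Mlkl, the executioner of necroptosis, rose at both times and further at 14 h. The gene lies at chr8:111311797-111338177 on the minus strand. With vehicle it had 11, 4, 4 and 9 footprints at 2 h and 12, 22, 18 and 24 at 14 h, and with IFN-β 42, 36, 48 and 37 at 2 h and 112, 361, 341 and 435 at 14 h. The lowest IFN-β library stood above the highest vehicle library at each time. In CPM it went from 0.874 ± 0.382 (SD, n = 4) to 6.37 ± 0.869 at 2 h and from 2.21 ± 0.0537 to 46.6 ± 6.38 at 14 h. The log2 fold change was 2.82 ± 0.29 (SE) at 2 h and 4.40 ± 0.14 at 14 h, or 7.06-fold and 21.1-fold (adjusted p = 0.000277 and 1.45e-11 in edgeR's quasi-likelihood test). Among same-numbered cultures the ratio ran from 4.54 to 13.2 at 2 h and from 17.5 to 23.6 at 14 h. Footprints of the sensor and of the membrane protein of the pathway thus rose with IFN-β at 14 h, while those of the kinase between them, Ripk3, stood at 0.372 ± 0.277 CPM. A predicted gene overlaps Mlkl on the other strand.

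Ripk1, the kinase that stands between TNF receptors and survival, apoptosis or necroptosis, had the highest footprint level of the members without IFN-β (chr13:34002363-34037147, plus strand). With vehicle it had 318, 222, 261 and 253 footprints at 2 h and 188, 343, 295 and 378 at 14 h, and with IFN-β 624, 412, 617 and 505 at 2 h and 134, 296, 283 and 431 at 14 h. In CPM, which takes the depth of each library into account, it rose from 33.6 ± 1.74 to 83.2 ± 3.10 at 2 h and from 35.1 ± 1.33 to 43.9 ± 2.07 at 14 h (SD, n = 4). The groups did not overlap in CPM at either time. The log2 fold change was 1.31 ± 0.07 (SE) at 2 h and 0.31 ± 0.07 at 14 h, or 2.48-fold and 1.24-fold (adjusted p = 5.11e-06 and 0.00144 in edgeR's quasi-likelihood test). The gene overlaps Serpinb6a and a predicted gene on the other strand, and the strand setting of the counting is not given in the sources used here.

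Casp8, the initiator caspase of death receptors and a brake on necroptosis, was low and about 2-fold higher at each time (chr1:58795374-58847503, plus strand). With vehicle it had 32, 13, 28 and 14 footprints at 2 h and 12, 25, 22 and 27 at 14 h, and with IFN-β 48, 17, 39 and 39 at 2 h and 19, 28, 34 and 52 at 14 h. In CPM the groups overlapped at 2 h and did not at 14 h, and each IFN-β library stood above the vehicle library of its number at both times. The log2 fold change was 0.98 ± 0.30 (SE) at 2 h and 1.02 ± 0.19 at 14 h, or 1.97-fold and 2.03-fold. At 14 h it was called (adjusted p = 0.000583 in edgeR's quasi-likelihood test) and at 2 h it was not (adjusted p = 0.0925). With the replicate number as a block, which pairs the footprint libraries, the 2 h change was called (log2 fold change 0.97, adjusted p = 0.000992), as it was with DESeq2 (adjusted p = 0.0350) and without both libraries of replicate 3 (0.97, adjusted p = 0.0195).

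Tnfsf10 encodes TRAIL, a ligand of death receptors (chr3:27317028-27342427, plus strand), and it was close to absent without IFN-β. One footprint was counted in the 4 vehicle libraries of 2 h and none in those of 14 h. With IFN-β it had 34, 26, 19 and 19 footprints at 2 h and 25, 91, 116 and 146 at 14 h, or 3.85 ± 1.19 and 13.6 ± 3.85 CPM (SD, n = 4). The ratio at 2 h, resting on that single count, was 118-fold with a 95% counting interval of 20.7 to 4716, and at 14 h footprints were at least 166-fold higher. Both changes were called (adjusted p = 0.000138 at 2 h and 2.71e-07 at 14 h in edgeR's quasi-likelihood test).

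Xaf1, an interferon-stimulated gene whose product binds the caspase inhibitor XIAP, had the highest footprint level of the 9 with IFN-β at 14 h (chr11:72301629-72313733, plus strand). With vehicle it had 2, 15, 6 and 6 footprints at 2 h and 0, 1, 1 and 4 at 14 h, and with IFN-β 316, 287, 337 and 251 at 2 h and 483, 1382, 1310 and 1867 at 14 h. In CPM it rose from 0.982 ± 0.795 to 46.8 ± 8.45 at 2 h and from 0.151 ± 0.162 to 188.6 ± 17.8 at 14 h (SD, n = 4). The log2 fold change was 5.62 ± 0.38 (SE) at 2 h and 9.94 ± 0.19 at 14 h, or 49.1-fold and 985-fold, the latter against 6 footprints in the vehicle group (adjusted p = 1.68e-05 and 1.08e-13 in edgeR's quasi-likelihood test). The highest vehicle library at 2 h was replicate 3, with 15 of the 29 footprints of its group.

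Casp1 and Casp4, the inflammatory caspases, lie next to each other on chromosome 9 (Casp1 chr9:5298517-5307265 and Casp4 chr9:5308828-5336783, both plus strand), followed by Casp12. Casp4 had 2, 3, 0 and 0 footprints with vehicle at 2 h and none in the 4 vehicle libraries of 14 h. With IFN-β it had 28, 25, 18 and 41 at 2 h and 10, 20, 14 and 25 at 14 h, or 4.49 ± 1.87 and 2.74 ± 0.53 CPM (SD, n = 4). The log2 fold change at 2 h was 4.66 ± 0.66 (SE), or 25.2-fold (adjusted p = 0.00171 in edgeR's quasi-likelihood test), and at 14 h footprints were at least 30.2-fold higher (adjusted p = 5.89e-06). The groups did not overlap at either time, and the IFN-β libraries of 2 h and 14 h overlapped each other.

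Casp1 had 1, 8, 2 and 3 footprints with vehicle and 5, 30, 9 and 14 with IFN-β at 2 h, and 5, 9, 12 and 18 with vehicle and 42, 152, 135 and 193 with IFN-β at 14 h. At 2 h the groups overlapped in CPM, with replicate 3 the highest library of each, and the ratio within same-numbered cultures ran from 4.74 to 5.94. The gene was not tested at 2 h for want of counts, and without the filter it was not called (log2 fold change 2.37 ± 0.81 SE, adjusted p = 0.155 in edgeR's quasi-likelihood test). At 14 h it rose from 1.25 ± 0.414 to 19.1 ± 3.44 CPM (SD, n = 4), a log2 fold change of 3.91 ± 0.21 (SE) or 15.1-fold (adjusted p = 4.71e-09), and the groups did not overlap.

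**Figure D2:**
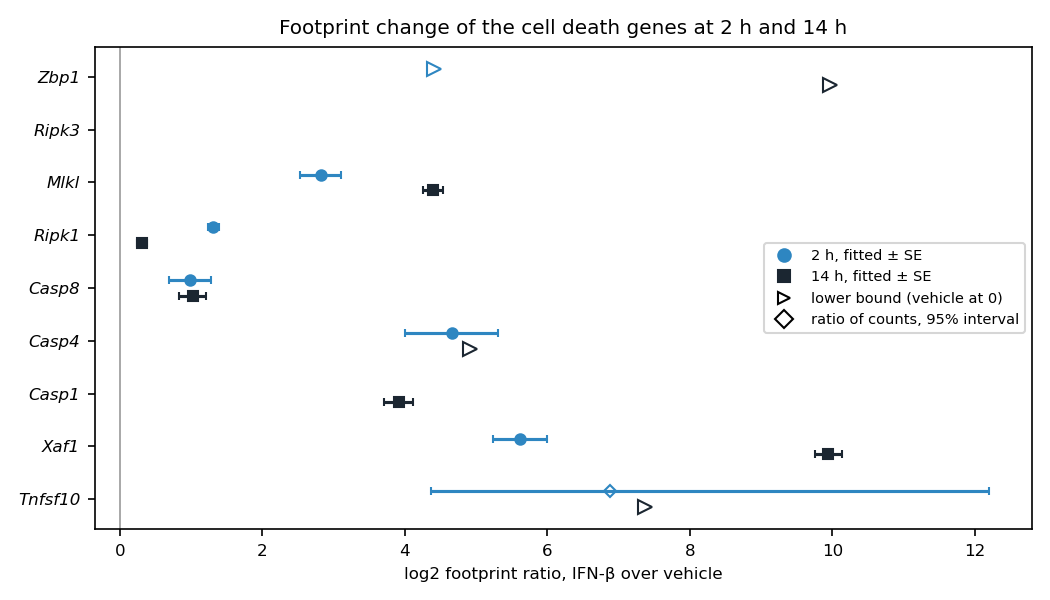
Log2 ratio of footprints, IFN-β over vehicle (horizontal axis), for each cell death gene at 2 h and at 14 h: filled points are fitted values with their SE, open triangles are lower bounds where the vehicle group had no footprint, and the open diamond is a ratio of counts with its 95% interval. Xaf1 goes from 5.62 to 9.94 and Mlkl from 2.82 to 4.40, Casp8 stays near 1, and Ripk1 falls from 1.31 to 0.31. Values not drawn (Ripk3 at both times, Casp1 at 2 h) did not pass the filter on low counts.

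Whether the response differed between the times was tested with a time by treatment interaction in the fit of all 16 footprint libraries. Of the 8 members tested, 2 had a larger change at 14 h and 1 a smaller one, where 15.4% of 12508 genes were called higher and 15.5% lower. The change of Xaf1 was larger at 14 h by 4.32 ± 0.73 on the log2 scale (adjusted p = 0.000271 in edgeR's quasi-likelihood test). Its level with IFN-β was 46.8 CPM at 2 h and 188.6 CPM at 14 h. With vehicle it was 0.982 and 0.151 CPM, on 29 and 6 footprints, so much of this difference rests on a vehicle level near the floor. The change of Mlkl was larger by 1.59 ± 0.32 (adjusted p = 0.00147). Ripk1 went the other way, with a difference of -0.99 ± 0.09 (adjusted p = 1.01e-06). The changes of Casp8 differed by 0.06 ± 0.35 (adjusted p = 0.919). For Casp1 the difference was 1.56 ± 0.93 (adjusted p = 0.220), and with the replicate number as a block it was called (1.53 ± 0.49, adjusted p = 0.0117), as it was without the IFN-β library of replicate 3 at 2 h (2.36, adjusted p = 0.0190). For Zbp1, Tnfsf10 and Casp4 a vehicle group without footprints leaves no fold to compare, and the interaction was not called (adjusted p = 1.00, 0.187 and 0.160), though DESeq2 called that of Zbp1 (adjusted p = 0.00130).

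Compared per length of CDS, levels without IFN-β were led by Ripk1 alone. It stood at 17.0 ± 0.882 CPM per kilobase at 2 h and 17.8 ± 0.678 at 14 h (SD, n = 4), and the next member, Casp8, at 1.81 ± 0.653 and 1.66 ± 0.160. With IFN-β at 2 h, Xaf1 (48.9 ± 8.84) and Ripk1 (42.3 ± 1.57) overlapped in their libraries at the top. Below them, Mlkl, Tnfsf10, Casp4, Casp8, Casp1 and Zbp1 ran from 4.42 to 1.53 CPM per kilobase with each overlapping the next. At 14 h the order was spread out: Xaf1 at 197 ± 18.6, Zbp1 at 63.5 ± 10.7, Mlkl at 32.4 ± 4.43 and Ripk1 at 22.3 ± 1.05 CPM per kilobase, none of which overlapped the next. Casp1 (15.9 ± 2.85) and Tnfsf10 (14.6 ± 4.16) overlapped each other, as did Casp8 (3.50 ± 0.663) and Casp4 (2.45 ± 0.474). Ripk3 was last with IFN-β at both times, at 0.190 ± 0.104 and 0.239 ± 0.178.

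The profiles of the members over the 16 footprint libraries were compared with those of 10314 genes whose mean was 50 counts or more, by Pearson's r of log2(CPM + 0.5). These libraries share their treatment groups and times, so the values are a description. The nearest gene to Xaf1 was Oasl2 (r = 0.995), an interferon-stimulated gene of the OAS family. Zbp1 was nearest to Shisa5 (r = 0.998) and Mpeg1 (r = 0.997), Mlkl to Tlr3 (r = 0.986), the receptor of double-stranded RNA in endosomes, and Casp4 to Irgm1 (r = 0.973). Tnfsf10 was nearest to Tgtp2 and Tgtp1 (r = 0.996 and 0.995), which are near-identical copies and may share reads. Ripk1, high at 2 h, was nearest to Lonrf1 (r = 0.987), Casp8 to Rhbdf1 (r = 0.929), with the receptor subunit Ifnar2 the next but one (r = 0.911), and Casp1 to H2-T22 (r = 0.959).

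Total RNA of the same cultures held few counts for these genes. Casp8 had the most, 13 to 117 per library at 2 h and 1 to 15 at 14 h. Ripk3 had none in any library, and Zbp1 at most 1 in a library, with 1 in all in each group, against 2285 footprints with IFN-β at 14 h. Low counts were general in these libraries: among genes that averaged 50 footprints or more, the median total RNA count was 18 at 2 h and 6.38 at 14 h. At 2 h 3 members could be tested and none was called, Ripk1 at a log2 fold change of -0.06 ± 0.36 (SE), Casp8 at 0.37 ± 0.45 and Tnfsf10 at 0.43 ± 0.48 (adjusted p = 0.999 for each in edgeR's quasi-likelihood test), where 0.799% of 11639 genes were called in either direction. None of these 3 passed an unadjusted p of 0.05 (0), and DESeq2 called none (0). At 14 h only Casp8 could be tested and it was not called (-0.46 ± 0.36, adjusted p = 0.529), where 6.3% of 7520 genes were called. Without a filter on low counts Xaf1, with 41 counts with IFN-β and 4 with vehicle at 2 h, was called there (log2 fold change 3.00 ± 0.75, adjusted p = 0.0324).

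Translation efficiency (TE), the change of footprints relative to total RNA, was tested as the interaction of library kind and treatment. Its calls used 0.1 as the limit of the adjusted p. Ripk1, Casp4 and Tnfsf10 were called higher at 2 h, 3 of the 6 members tested, where 0.581% of 14115 genes were. At 14 h 7 of the 8 tested were called higher, all but Casp1, where 4.49% of 13447 genes were. These shares, too, cannot be read as support by themselves. At 14 h Zbp1, Casp4, Casp1, Xaf1 and Tnfsf10 passed the filter on low counts only through their IFN-β libraries. Mlkl, Casp4, Xaf1 and Tnfsf10 did so at 2 h. The calls also rest on very few total RNA counts. Tnfsf10 had 30 total RNA counts with vehicle and 46 with IFN-β at 2 h, against 1 and 98 footprints, and Casp4 had 15 and 6 against 5 and 112. Ripk1, with 64 and 67 total RNA counts at 2 h and 33 and 21 at 14 h, had a TE change of 1.43 ± 0.31 (SE) at 2 h and 1.38 ± 0.38 at 14 h on the log2 scale (adjusted p = 0.0390 and 0.0261 in edgeR's quasi-likelihood test). For Casp8 at 14 h it was 1.45 ± 0.40 (adjusted p = 0.0275), with 42 and 41 total RNA counts. No member averaged 50 counts or more in footprints and in total RNA alike at either time, and leaving out single libraries ended several of the calls. The Ripk1 call at 2 h was lost without vehicle replicates 3, 5 or 6 or IFN-β replicates 5 or 6 (adjusted p from 0.113 to 0.251), and that at 14 h without vehicle replicate 1 or 2 (0.116 and 0.134). The Ripk1 call at 2 h was also lost with total counts alone in place of TMM (adjusted p = 0.791) and without both libraries of replicate 3 (0.166). Of the other calls at 14 h, those of Zbp1 and Mlkl were lost without vehicle replicate 1 (adjusted p = 1.00 and 0.514), that of Casp8 without vehicle replicate 2 (0.133) and that of Xaf1 without vehicle replicate 4 (1.00).

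Around the members, 77 other genes of the same pathways were read in 4 lists, of which 53 could be tested in footprints at 2 h and 55 at 14 h. At 2 h 8 were called higher and 1 lower, beside 5.25% and 2.01% of all genes tested. At 14 h 23 were called higher and 7 lower, beside 26.2% and 26.3%. The lists were chosen with earlier results of these data known, so these shares are not support by themselves. The median log2 fold change of those tested was 0.05 at 2 h and 0.18 at 14 h, beside medians of -0.02 and 0.00 over all genes.

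Of the death receptor genes, 4 of 16 tested were called higher and none lower at 2 h (median 0.11), beside 5.25% and 2.01% of all genes. At 14 h 8 of 17 were called higher and 2 lower (median 0.31), beside 26.2% and 26.3%. The largest changes at 2 h were those of the receptors Fas and Tnfrsf1a, while the other receptors tested, Tnfrsf10b (0.09 ± 0.21 SE) and Tnfrsf22 (-0.23 ± 0.34), were not called. Fas, the receptor of FasL, went from 17.1 ± 4.91 to 55.7 ± 20.8 CPM (SD, n = 4) at 2 h, with replicate 3 highest in both groups (22.5 and 86.2 CPM), and from 12.1 ± 0.823 to 18.0 ± 1.55 CPM at 14 h. Its log2 fold change was 1.70 ± 0.28 (SE) and 0.57 ± 0.11 (adjusted p = 0.00487 and 0.000552 in edgeR's quasi-likelihood test), and the difference between times was -1.12 ± 0.32 (adjusted p = 0.0143). Tnfrsf1a, the TNF receptor that recruits RIPK1, showed the same order, 1.28 ± 0.14 at 2 h and 0.60 ± 0.06 at 14 h, with a difference of -0.68 ± 0.15 (adjusted p = 0.00268). Cflar, which encodes the caspase-8 inhibitor cFLIP, rose by 0.88 ± 0.16 and 0.95 ± 0.11. At 14 h Bid, which links caspase-8 to mitochondria, rose by 1.02 ± 0.11 and Tradd, an adaptor of TNFR1, by 0.71 ± 0.13. Bid overlaps Bcl2l13 on the other strand. The 2 called lower at 14 h were the adaptor Fadd and the decoy receptor Tnfrsf22.

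**Figure D3:**
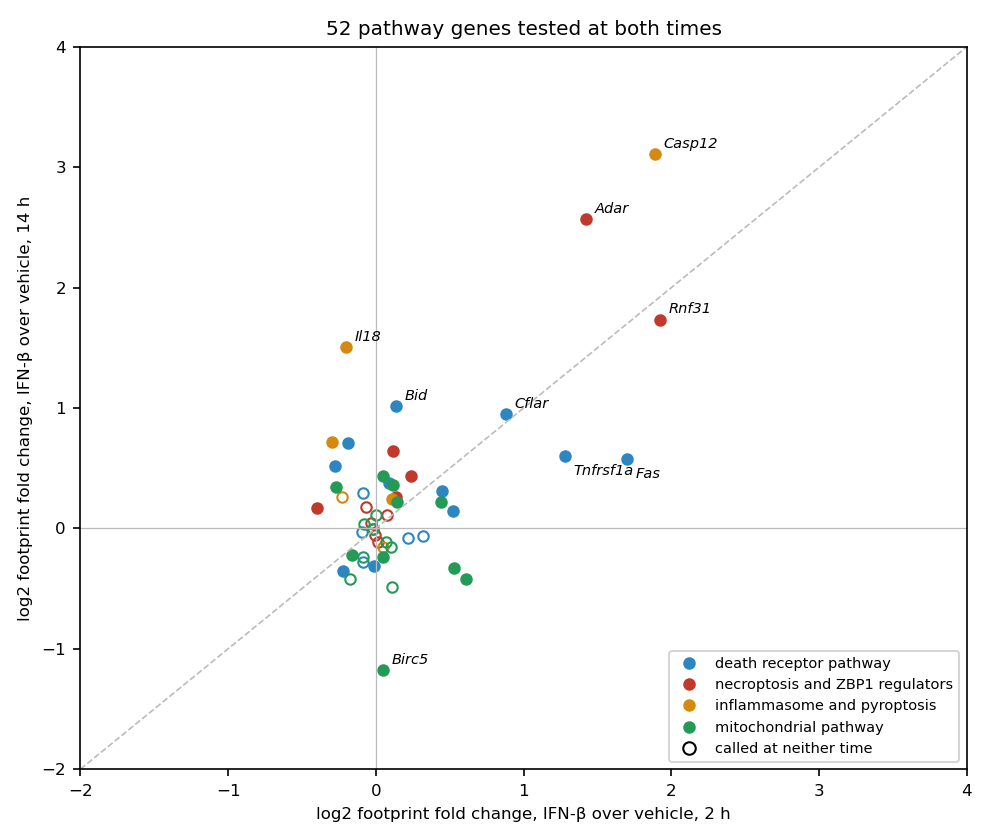
Log2 fold change of footprints at 2 h (horizontal) against 14 h (vertical) for the 52 pathway genes tested at both times, coloured by list, filled where the gene was called at 1 time or both. Casp12, Adar and Rnf31 are high at both times, Fas and Tnfrsf1a lie below the dashed line of equal change, and Il18, Bid and Birc5 moved at 14 h.

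Of the regulators of necroptosis and ZBP1, 12 of 12 could be tested. At 2 h 2 were called higher and 1 lower (median 0.04), beside 5.25% and 2.01% of all genes. At 14 h 5 were called higher and none lower (median 0.17), beside 26.2% and 26.3%. Adar, whose product edits double-stranded RNA and restrains ZBP1, went from 48.8 ± 1.94 to 130.8 ± 20.1 CPM (SD, n = 4) at 2 h and from 43.0 ± 2.70 to 256.9 ± 11.1 CPM at 14 h. Its log2 fold change was 1.42 ± 0.11 (SE) and 2.57 ± 0.06 (adjusted p = 4.94e-05 and 1.17e-12 in edgeR's quasi-likelihood test), larger at 14 h by 1.16 ± 0.13 (adjusted p = 5.85e-06). Rnf31, the catalytic subunit of the linear ubiquitin ligase that acts on RIPK1, rose by 1.92 ± 0.12 and 1.73 ± 0.07 (adjusted p = 1.34e-05 and 4.57e-10). Adar overlaps Chrnb2 on the other strand. Rnf31 overlaps Irf9 on the same strand, and its total RNA was called at both times as well (2.11 ± 0.27 and 3.62 ± 0.44, adjusted p = 0.00146 and 4.48e-05), with a TE change of -1.95 ± 0.40 at 14 h (adjusted p = 0.00273). The adaptor gene Ticam1 and Rbck1, another subunit of the ligase, rose at 14 h by 0.64 ± 0.13 and 0.44 ± 0.10. Peli1, a ubiquitin ligase, fell by 0.40 on the log2 scale at 2 h (SE 0.10, adjusted p = 0.0417), a call that was lost without any 1 of 6 libraries (all but vehicle replicate 3 and IFN-β replicate 2, adjusted p from 0.0586 to 0.133).

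Of the 19 inflammasome and pyroptosis genes, 6 could be tested at 2 h and 8 at 14 h. Called higher were 1 and 5, and none lower (medians -0.08 and 0.60). Over all genes 5.25% and 26.2% were called higher, and 2.01% and 26.3% lower. Gsdmd, the substrate of both inflammatory caspases, had 2, 5, 2 and 5 footprints with vehicle and 0, 1, 4 and 1 with IFN-β at 2 h, and 1 in each vehicle library and 11, 34, 43 and 59 with IFN-β at 14 h. It was not tested at 2 h, and at 14 h its log2 fold change was 5.38 ± 0.37 (SE), or 41.6-fold against 4 vehicle footprints (adjusted p = 4.86e-08 in edgeR's quasi-likelihood test). At 14 h it passed the filter on low counts only through its IFN-β libraries, so its call is not support by itself. The difference between the times was called (adjusted p = 5.39e-05). At 2 h, when Casp4 was called higher, the pore gene had 6 footprints in the IFN-β libraries and 14 in the vehicle libraries. Casp12, beside Casp4 on chromosome 9, rose by 1.89 ± 0.43 at 2 h and 3.11 ± 0.16 at 14 h (adjusted p = 0.0266 and 2.82e-09), and the 2 h call was lost without vehicle replicate 2, 5 or 6 or IFN-β replicate 5 (adjusted p from 0.0735 to 0.0951). With 10, 27, 16 and 8 vehicle footprints at 2 h, Casp12 too passed the filter there only with its IFN-β libraries. At 14 h Il18, a cytokine that caspase-1 matures, rose by 1.51 ± 0.16 and Ninj1, which ruptures the membrane of dying cells, by 0.72 ± 0.10. Il18 overlaps Bco2 and Tex12 on the other strand.

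**Figure D4:**
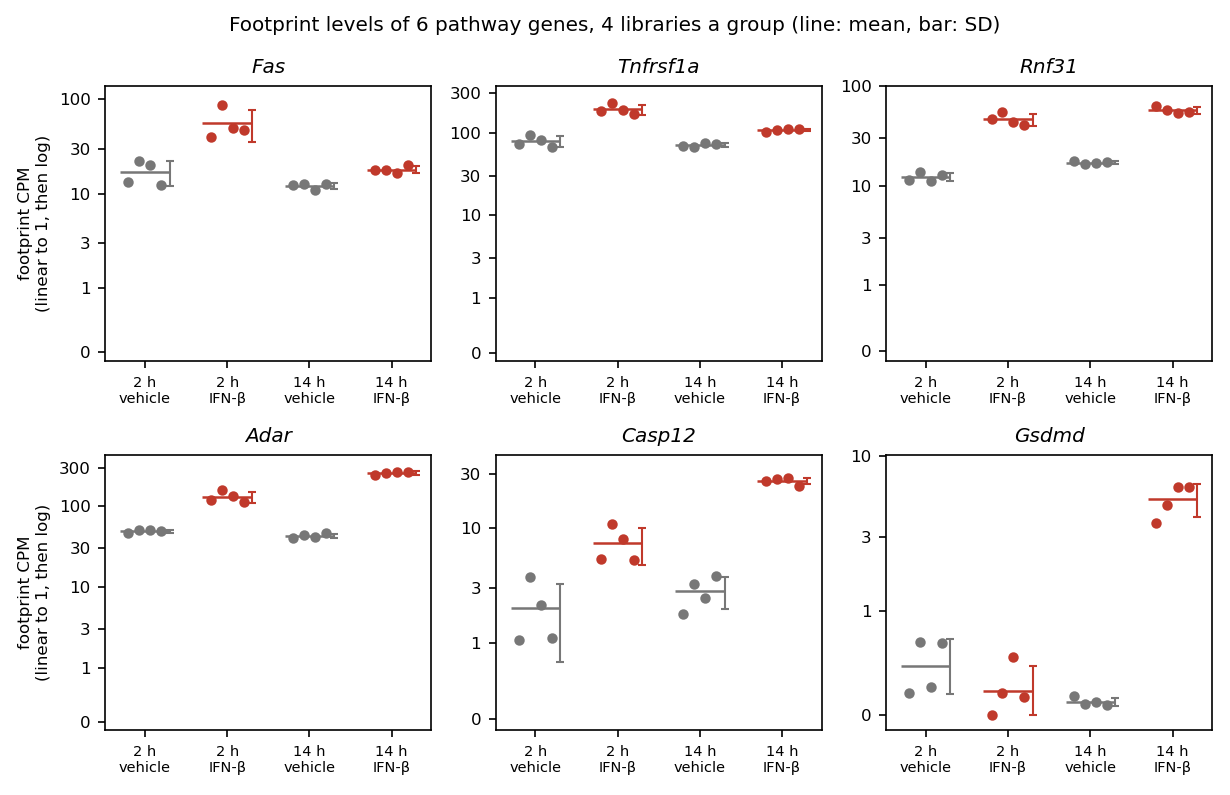
Footprint level in CPM (vertical axis, linear to 1 and logarithmic above) of 6 pathway genes in the 4 libraries of each group, with the mean as a line and the SD as a bar. Fas and Tnfrsf1a are highest with IFN-β at 2 h, Rnf31 and Adar rise at both times, and Gsdmd rises at 14 h, from at most 0.179 CPM with vehicle to 3.69 CPM and more with IFN-β.

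Of the 25 genes of the mitochondrial pathway listed, 23 stand in the footprint tables, and 19 could be tested at 2 h and 18 at 14 h. At 2 h 1 was called higher and none lower (median 0.05), and at 14 h 5 higher and 5 lower (median -0.13), which is close to the share over all genes at each time (5.25% higher at 2 h, and 26.2% higher and 26.3% lower at 14 h). Mcl1, a survival protein of short half-life, rose by 0.53 ± 0.12 (SE) at 2 h and fell by 0.33 on the log2 scale at 14 h (SE 0.06), with a difference of -0.85 ± 0.14 (adjusted p = 0.000210 in edgeR's quasi-likelihood test). The 2 h rise (adjusted p = 0.0285) was not called without vehicle replicate 2 or 6 or IFN-β replicate 2, 5 or 6 (adjusted p from 0.0835 to 0.101). At 14 h Birc5, encoding survivin, a protein of dividing cells, fell by 1.18 (SE 0.08, adjusted p = 4.37e-08). Bbc3 (PUMA) rose by 0.44 ± 0.12 and Bak1, which overlaps Ggnbp1 on the other strand, by 0.36 ± 0.07. Bcl2l11 (BIM) fell by 0.42 (SE 0.17, adjusted p = 0.0491) and was not called with DESeq2 (adjusted p = 0.0902) or, of the 8 libraries, without any but IFN-β replicate 4 (adjusted p from 0.0522 to 0.159).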

How the data were processed

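Ribo-Seq and total RNA of the same 16 cultures were measured, 32 libraries. The authors trimmed reads with Trim Galore 0.4.4, mapped them with Bowtie 0.12.7 to the mm10 transcriptome, removed duplicates and counted them per gene, and the values they deposited are raw counts, footprints in CDS and total RNA over the gene. The strand setting is not given in the sources used here. Groups and replicate numbers were taken from the labels, and no column belonged to another sample (0). Symbols and positions came from GENCODE M21 (22282 of 23035 footprint genes matched) and promoter sequences from RefSeq.

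Counts were fitted in R 4.3.3 with edgeR 4.0.16 (TMM, quasi-likelihood test, two-sided, Benjamini-Hochberg), each time point on its own, without a block. Genes needed 10 counts in 4 libraries. SE is the coefficient over the square root of F. Where a group had no footprint, bounds were taken at 3 counts summed over its libraries, and with 1 to 3 counts a ratio with a 95% interval was given. DESeq2 1.42.0, other scaling, other filters, a replicate block and leaving out libraries were alternatives. Replicate numbers pair the footprint libraries by the data: deviations from the group means of same-numbered libraries correlated at 0.328 to 0.812 (2 h) and 0.192 to 0.418 (14 h). Python 3.11.15 drew the figures.

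The members and the 4 pathway lists, written from general knowledge, were chosen with earlier results of these data known. Named were all members and, of each list and time, up to 4 called genes with the largest change and a mean of at least 10 counts, and for likeness the nearest 3 genes of each called member. Some items that this rule or the marker lists hold are not reported here.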

Additional observations from a re-analysis of the deposited data

Results flagged for a closer look

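The response of 3 members differed between 14 h and 2 h by the interaction test: Xaf1 by 4.32 and Mlkl by 1.59 on the log2 scale, larger at 14 h, and Ripk1 by -0.99, smaller at 14 h. Much of the Xaf1 difference rests on vehicle levels near the floor, with 29 footprints at 2 h and 6 at 14 h. Within groups of 4 libraries, 116 groups of 29 genes were looked at for a library far from its mates, and 6 stood out, where chance gives about 1 in 20. Xaf1 was lowest in IFN-β replicate 1 of 14 h, the shallowest footprint library, at 162 CPM against 194.0 to 200.3 in the others. The single Tnfsf10 footprint of the 2 h vehicle group stood in replicate 2 (0.106 CPM against 0). Fas was lowest in vehicle replicate 3 of 14 h (10.9 CPM against 12.4 to 12.6). Cflar was lowest in IFN-β replicate 2 of 2 h (13.9 CPM against 17.2 in each of the others), and Bak1 was highest there (55.4 CPM against 39.0 to 40.2). Il18 was highest in vehicle replicate 3 of 2 h, the replicate that stands apart, at 41.1 CPM against 20.1 to 20.7.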

How the results depend on the processing

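Beside the genes called in the comparisons, 81 changes of members and pathway genes were refitted under the alternatives. Of these values 2035 kept direction and side of the threshold, 116 lost the call, 26 gained it and 18 changed sign. Member calls with IFN-β numbered 5 of 6 at 2 h and 8 of 8 at 14 h, and in the alternatives not named here they were within 1.5 times of that. A mean of at least 50 counts left 2 at 2 h and 5 at 14 h, and no member for TE (0), since fewer could be tested. With 1 library left out the counts ran from 3 to 6 at 2 h and from 4 to 8 at 14 h, and for TE from 1 to 3 and from 3 to 7, lowest at 2 h without IFN-β replicates 2, 5 or 6 (footprints) or 5 or 6 (TE) and at 14 h without any IFN-β library. The filter asks for 4 libraries, so genes with footprints in IFN-β libraries alone drop out of these fits. With the tested genes kept, an alternative chosen after seeing the data, they were 5 to 6 and 8. Without both 2 h libraries of replicate 3, also chosen after seeing the data, 3 were called at 2 h and 1 for TE, for the same filter. In total RNA at 2 h 1 member was called without a filter (Xaf1).

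Over all genes, footprint calls at 2 h (878) were 3538 with the replicate block, 1671 without replicate 3 and 517 to 965 with 1 library left out (517, 563 and 575 without IFN-β replicates 5, 2 and 6). The difference between times (3867) gave 6944 calls with the block, which changed no call of a named gene but Casp8 at 2 h and, in this difference, Casp1, Casp12, Bbc3 and Bak1 (all gained). Total RNA at 2 h (93) gave 169 with DESeq2, 174 without a filter, 44 at a mean of 50 counts, 39 without replicate 3 and 30 to 74 with 1 library left out, and at 14 h (474) 269 with total counts alone, 247 at a mean of 50 and 171 to 450. TE at 2 h (115) gave 259 with DESeq2, 51 with total counts alone, 27 at a mean of 50, 201 without replicate 3 and 70 to 156, and at 14 h (1136) 380 at a mean of 50. Values that changed sign were near 0 or rest on few counts: the difference between times of Casp8 (-0.11 to 0.20) and Cflar (-0.036 to 0.16, and -0.015 without replicate 3), and the TE change of Mlkl at 2 h (-0.23 to 2.46) and Casp1 at 14 h (-0.044 to 0.81), each with 1 library left out. The cause of the other changes was not tested. Low counts limit the tests of Ripk3, Casp1 and Zbp1 at 2 h and of every member in total RNA. The cause of these low counts was not tested.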
